A study of Rattus norvegicus and Mus musculus with 251 samples.

Results

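Plin4, which encodes perilipin 4, was examined together with 7 genes that glucocorticoid hormones are known to induce: Zbtb16, Fkbp5, Sgk1, Tsc22d3, Errfi1, Pdk4 and Cdkn1a. These 8 genes were taken by symbol from the 46078 genes of the mouse count table. Plin4 was chosen by its measured values, being among the genes that differed most between the nucleus accumbens (NAc) of mice 24 h after morphine and that of saline mice. The other 7 were chosen for their known hormone response with the same results in view. The values of that contrast are therefore given as a description only. All 8 passed the filter on low counts in both regions, among 17966 genes tested in the prefrontal cortex (PFC) and 18382 in NAc.

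Male and female C57BL/6J mice, an inbred strain, drank a saline or a morphine solution. RNA came from tissue punches of 0.5 mm and was sequenced as total RNA in read pairs of 75 bases. The saline group (labelled Sal) had 6 PFC and 7 NAc libraries, the group labelled Chronic mor 8 and 8, the group labelled Mor + 24h 9 and 9, and the group labelled Mor + 2W 7 and 8. They are called saline, chronic, 24 h and 2 weeks here. Nothing in the labels gives the dose, the duration of drinking, the age or the hour of collection, and the labels name no separate cages or cohorts, so p-values measure the spread between these libraries.

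Glucocorticoids, in rodents mainly corticosterone, cross into brain cells and bind the glucocorticoid receptor, which the Hsp90 chaperone complex holds ready in the cytoplasm. The bound receptor enters the nucleus and raises transcription of target genes that restrain the receptor itself, shift fuel use, and dampen growth factor and inflammatory signals. Opioids and their withdrawal are known to act on the hormonal stress axis that releases these steroids. Hormone levels were not measured here.

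NAc libraries held 22.39 M to 43.96 M counts in genes (M for mega) and PFC libraries, with 1 exception, 24.94 M to 41.53 M. The exception was the PFC library number 10 of the 2 weeks group, with 5.183 M and 10563 genes detected against at least 18166 in the other PFC libraries. The libraries numbered 27, labelled chronic and female, expressed the Y-linked gene Kdm5d in both regions, against their label. One PFC library, number 31 of the chronic group, held choroid plexus markers at 3290 CPM (counts per M counts of the library) in sum, and 1 NAc library, number 24 of the 24 h group, held cortical excitatory neuron markers at 673 CPM against a median of 68.5 CPM in its group and at most 79.1 CPM in saline. Striatal projection neuron markers in NAc summed to as little as 376 CPM in saline and 407 CPM in chronic, against group medians of 3020 and 4400 CPM. The marker Drd1 was lowest of its group in saline number 6 and chronic number 25, at 276 and 394 counts. The labels give the cell type as neuron, but oligodendrocyte markers summed to 3100 to 14700 CPM across the libraries, so the punches are described here as tissue. In such bulk tissue, fewer cells of a type and less RNA per cell cannot be told apart.

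Plin4 (ENSMUSG00000002831) is a protein-coding gene on the minus strand of chromosome 17, 56100591 to 56109803 (GRCm38), and overlaps Hdgfl2 on the other strand. Perilipins coat lipid droplets, and the middle of perilipin 4 is built from amino acid repeats that bind the droplet surface. In the annotated transcript Plin4-202 the coding sequence of 4212 bases therefore holds a stretch that repeats itself every 99 bases. Neighbouring units of this stretch are shown because they limit how reads of this gene can be placed. Capitals mark the bases that differ from unit 2, and each unit is written 5′ to 3′ along the transcript on the minus strand of GRCm38: unit 1 at chr17:56106334-56106432, unit 2 at chr17:56106235-56106333 and unit 3 at chr17:56106136-56106234.

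unit 1: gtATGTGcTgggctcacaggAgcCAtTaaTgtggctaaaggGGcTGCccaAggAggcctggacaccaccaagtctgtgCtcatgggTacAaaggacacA

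unit 2: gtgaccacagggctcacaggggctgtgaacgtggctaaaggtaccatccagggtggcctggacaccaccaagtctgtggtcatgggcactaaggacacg

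unit 3: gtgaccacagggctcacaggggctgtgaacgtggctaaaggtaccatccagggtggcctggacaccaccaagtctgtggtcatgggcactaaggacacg

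Units 2 and 3 were identical over all 99 bases, and unit 1 differed from unit 2 at 22 of them. Of the 5682 windows of 75 bases in this transcript, 12.2% occurred more than once in it. The same share was 0.119% in Zbtb16 and 0 in 1 annotated coding transcript of each of the other 6 genes. The authors' table keeps reads aligned to several places apart from the gene counts, so counts of Plin4 may leave out part of its reads, and how many was not tested.

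Per length of exon, Plin4 was the least abundant of the 8 genes in saline mice, at 0.309 ± 0.0987 (SD, n = 6) counts per kilobase of exon per M counts in PFC and 0.44 ± 0.196 (SD, n = 7) in NAc. Tsc22d3 and Sgk1 stood highest in both regions, at 21 ± 2.45 and 18 ± 4.49 in PFC and at 17.5 ± 4.8 and 21.4 ± 3.37 in NAc, and these neighbours overlapped within each region. Errfi1 followed at 10.3 ± 0.817 in PFC and 8.04 ± 0.676 in NAc. Zbtb16 showed the widest regional gap, with 9.01 ± 1.72 in PFC and 1.68 ± 0.432 in NAc. Cdkn1a stood at 7.84 ± 1.76 in PFC and 4.1 ± 1.62 in NAc. Pdk4 was at 3.9 ± 0.589 and 3.93 ± 0.772, and Fkbp5 at 3.74 ± 0.651 and 4.8 ± 0.711, so that Pdk4 and Fkbp5 overlapped in both regions. All later levels are log2 CPM with a prior count of 2, in which genes of different length are not comparable.

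The median of Plin4 was above that of saline in every morphine group of both regions, and farthest above it at 24 h. In PFC the saline libraries lay between 0.29 and 1.48 log2 CPM with a median of 0.84. The 24 h libraries lay between 0.87 and 3.46 with a median of 2.41, and 7 of 9 were above the highest saline library. The chronic libraries lay between 0.50 and 3.26 with a median of 1.84, and 6 of 8 were above it. At 2 weeks the range was -3.92 to 3.10 with a median of 1.60. The lowest value is library number 10, which had 0 counts of Plin4, and without it the 6 others lay between 0.15 and 3.10. With it the mean at 2 weeks was 0.78, below the saline mean of 0.83, and without it 1.57. All morphine groups in PFC thus overlapped saline. Groups did not overlap for 0.601% of all genes under chronic morphine, 0.161% at 24 h and 0.134% at 2 weeks.

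In PFC none of the 8 members was called in any contrast with saline, a call being a Benjamini-Hochberg adjusted p under 0.05 in edgeR over all genes tested. The share of all genes called there was 0.417% for chronic morphine, 0.0779% at 24 h and 0.00557% at 2 weeks. By that fit Plin4 at 24 h was 3.09-fold the saline level, or 1.63 ± 0.48 on the log2 scale (SE; adjusted p = 0.572 and unadjusted p = 0.00207 in edgeR). Under chronic morphine it was 2.53-fold, or 1.34 ± 0.49 (SE; edgeR, adjusted p = 0.421). At 2 weeks the difference was 0.67 ± 0.50 on the log2 scale (SE; edgeR, adjusted p = 0.949). The PFC libraries share their numbers with the NAc libraries from which Plin4 was chosen. If a number is an animal, which the labels do not say, the PFC p-values of Plin4 are not independent of the choice.

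In NAc the saline libraries of Plin4 lay between 0.04 and 1.93 log2 CPM with a median of 1.55. The chronic libraries lay between 1.40 and 3.91 with a median of 2.74, and 6 of 8 were above the highest saline library. The 2 weeks libraries lay between 0.22 and 3.46 with a median of 1.87, and 4 of 8 were above it. The 24 h libraries, from which Plin4 was chosen, lay between 2.12 and 4.25 with a median of 3.40 and did not overlap saline, as for 0.125% of all genes, while the chronic group overlapped it, unlike 0.381% of all genes. The fold at 24 h, given as a description, was 4.26, a log2 fold change of 2.09 ± 0.41 (SE).

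Under chronic morphine Plin4 in NAc was 2.94-fold the saline level, a log2 fold change of 1.55 ± 0.41 (SE). Its edgeR adjusted p was 0.0501, outside the threshold, while 1.69% of all genes were called in that contrast. The saline libraries here are those of the contrast Plin4 was chosen from, so for this gene the p-values of both contrasts in this paragraph are not independent of the choice and are given as a description. With the level group of the mitochondrial gene mt-Nd3 as a covariate the log2 fold change was 1.44 ± 0.43 (SE). Without the libraries numbered 10 and 27 the log2 fold change was 1.70 ± 0.43 (SE; edgeR, adjusted p = 0.0694). At 2 weeks it was 0.77 ± 0.41 (SE; edgeR, adjusted p = 0.83).

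mt-Nd3 was at 1 of 2 separate levels in these mice. It was low in saline numbers 1, 2 and 3, in 5 of 8 chronic, in 2 of 9 libraries at 24 h and in none at 2 weeks, with the same numbers low in both regions. The low saline libraries were all 3 of its females and the high ones all of its males, so sex and mt-Nd3 level cannot be told apart in saline. In the chronic group all 3 libraries labelled female and 2 of 5 males were low, and the 2 low libraries at 24 h were male. Among the NAc chronic libraries, Plin4 had a median of 3.10 log2 CPM in the 5 with low mt-Nd3 and 1.67 in the 3 with high mt-Nd3. The 3 saline libraries with low mt-Nd3 had a median of 1.84, and the 4 with high mt-Nd3 a median of 1.05. At 24 h in NAc the order was the opposite, with 2.76 in the 2 low and 3.42 in the 7 high libraries. In PFC the low libraries had the higher median in each group with both levels. These medians were 0.99 against 0.49 in saline, 2.30 against 0.91 under chronic morphine and 2.58 against 2.25 at 24 h. The 3 high PFC chronic libraries lay between 0.50 and 1.98, overlapping the 3 high saline libraries at 0.29 to 1.08. The part of this division in the difference from saline was tested only as the covariate named above.

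**Figure D1:**
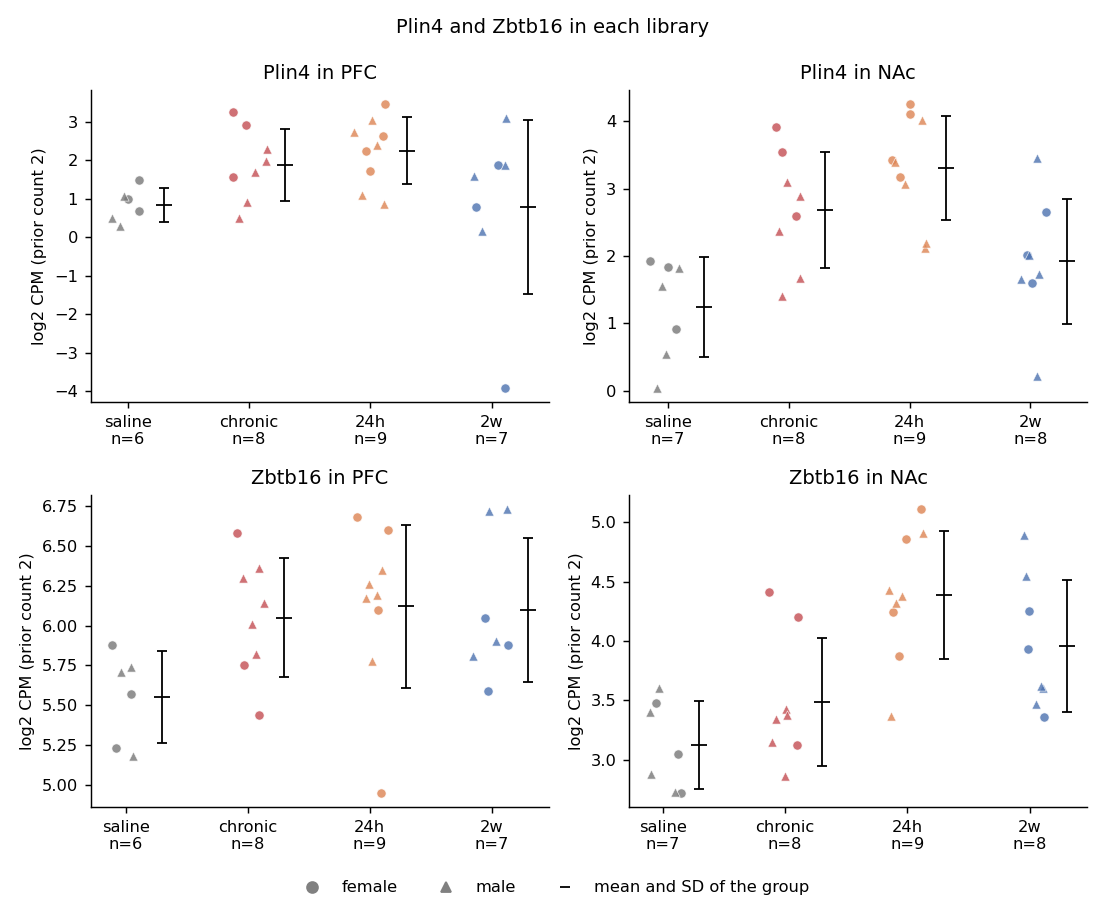
Log2 CPM (vertical axes) of Plin4 and Zbtb16 in each library of PFC and NAc by group, with circles for females, triangles for males and the group mean ± SD in black. Plin4 in NAc at 24 h lies above every saline library, while the PFC groups overlap saline. The PFC library at -3.92 is number 10, and the PFC mean at 2 weeks, 0.78, includes it.

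Zbtb16 (ENSMUSG00000066687; chromosome 9, 48654297 to 48836222, minus strand, no overlapping gene) encodes the zinc finger repressor PLZF, which glucocorticoids induce strongly in several tissues. In NAc its saline libraries lay between 2.72 and 3.60 log2 CPM with a median of 3.05. At 2 weeks they lay between 3.36 and 4.89 with a median of 3.77, and 6 of 8 were above saline, 1 of them (number 12) by less than the printed digits. Chronic libraries lay between 2.86 and 4.41 with a median of 3.36, and 2 of 8 were above saline. At 24 h, as a description, the range was 3.37 to 5.11 with a median of 4.38, and 8 of 9 were above saline, a log2 fold change of 1.33 ± 0.26 (SE).

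The log2 fold change of Zbtb16 in NAc was 0.87 ± 0.26 at 2 weeks (SE; edgeR, adjusted p = 0.385, unadjusted p = 0.00254). Under chronic morphine it was 0.47 ± 0.26 (SE; edgeR, adjusted p = 0.404). Both contrasts share their saline libraries with the 24 h contrast that was in view at the choice. The NAc library with the highest cortical sum, number 24, had Zbtb16 at 4.91, and the part of cortical tissue in the NAc values was not tested. In PFC the saline range was 5.18 to 5.88, and 5 of 8 chronic, 7 of 9 libraries at 24 h and 4 of 7 at 2 weeks were above it. The log2 fold changes there were 0.50 ± 0.22, 0.62 ± 0.21 and 0.53 ± 0.22 (SE), with edgeR adjusted p of 0.559, 1 and 0.913.

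Fkbp5 (ENSMUSG00000024222; chromosome 17, 28399094 to 28517527, with 4 overlapping noncoding genes) encodes FKBP51, a cochaperone of Hsp90 that lowers the affinity of the receptor for hormone and so closes a feedback loop. In NAc the saline libraries lay between 4.96 and 5.65 log2 CPM, the chronic between 5.54 and 6.20 and the 2 weeks libraries between 5.32 and 5.81, and 5 of 8 chronic libraries were above saline. The log2 fold change was 0.39 ± 0.11 under chronic morphine (SE; edgeR, adjusted p = 0.0732). Between chronic and 2 weeks it was -0.34 ± 0.11 (SE; edgeR, adjusted p = 0.131). Of 10 other settings 4 called the chronic difference. With 1 library left out, the edgeR adjusted p ran from 0.0209, without chronic number 25, to 0.261. Of these 32 fits 1 called it. Chronic number 25 had the lowest Drd1 counts of its NAc group. As for every member, the NAc saline libraries are those of the contrast in view at the choice. In PFC the fold change was 0.38 ± 0.17 under chronic morphine (SE; edgeR, adjusted p = 0.586), with 4 of 8 libraries above saline. At 2 weeks in PFC it was 0.25 ± 0.18 with all libraries and -0.07 ± 0.13 without numbers 10 and 27 (SE).

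Sgk1 (ENSMUSG00000019970; chromosome 10, 21882184 to 21999903), the serum and glucocorticoid regulated kinase, which acts on ion channels and transporters, was lower than saline on average in every morphine group. In NAc the saline libraries lay between 6.49 and 7.02 log2 CPM and the 2 weeks libraries between 5.88 and 6.38, so that these groups did not overlap, as for 0.0979% of all genes. The log2 fold change was -0.51 ± 0.15 (SE; edgeR, adjusted p = 0.375, unadjusted p = 0.00228). No member was called at 2 weeks in NAc, and 0.00544% of all genes were. In PFC at 2 weeks the libraries lay between 5.51 and 6.00 against 5.78 to 6.82 in saline, and 4 of 7 were below the lowest saline library. The log2 fold change was -0.69 ± 0.15 (SE; edgeR, adjusted p = 0.443, unadjusted p = 0.000107), and DESeq2 called it with an adjusted p of 0.0468. In the chronic and 24 h groups it was -0.39 ± 0.15 and -0.46 ± 0.14 in PFC and, under chronic morphine, -0.13 ± 0.15 in NAc (SE). The PFC saline libraries split by sex, with females at 5.78 to 6.41 and males at 6.65 to 6.82. Under chronic morphine the PFC means were 6.06 in females and 5.96 in males, against 6.12 and 6.73 in saline. Sex and the level of the mitochondrial gene mt-Nd3 cannot be told apart in saline.

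Tsc22d3 (ENSMUSG00000031431; chromosome X, 140539528 to 140600659) encodes GILZ, a leucine zipper protein that mediates much of the anti-inflammatory action of glucocorticoids. Its saline range was 6.19 to 6.69 log2 CPM in PFC and 5.53 to 6.76 in NAc, and every morphine group overlapped it. The log2 fold changes in PFC were -0.33 ± 0.14, -0.17 ± 0.14 and -0.23 ± 0.15 (SE) in the chronic, 24 h and 2 weeks groups. In NAc they were -0.22 ± 0.17 under chronic morphine and -0.20 ± 0.17 at 2 weeks (SE).

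Errfi1 (ENSMUSG00000028967; chromosome 4, 150853919 to 150868892, with an antisense gene) encodes an inhibitor of the epidermal growth factor receptor. It varied least between saline libraries, from 5.09 to 5.34 log2 CPM in PFC. In that region 7 of 8 chronic, 8 of 9 libraries at 24 h and 5 of 7 at 2 weeks were below the lowest saline library, 1 of those at 24 h (number 18) by less than the printed digits. The log2 fold changes were -0.32 ± 0.12, -0.27 ± 0.12 and -0.28 ± 0.13 (SE), with edgeR adjusted p of 0.493, 1 and 0.949. In NAc the saline range was 4.65 to 5.01 and 4 of 8 chronic libraries were below it, at -0.16 ± 0.07 (SE; edgeR, adjusted p = 0.306).

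Pdk4 (ENSMUSG00000019577; chromosome 6, 5483351 to 5496309) encodes a kinase that shuts off pyruvate dehydrogenase and thereby spares glucose. In PFC its saline libraries lay between 3.36 and 4.0 log2 CPM, and the log2 fold changes were -0.28 ± 0.19, -0.37 ± 0.18 and -0.24 ± 0.20 (SE). In NAc the values under chronic morphine and at 2 weeks were -0.08 ± 0.19 and -0.03 ± 0.19 (SE). Cdkn1a (ENSMUSG00000023067; chromosome 17, 29090976 to 29100727), the cyclin-dependent kinase inhibitor p21 and also a p53 target, differed from saline by 0.02 ± 0.22, 0.11 ± 0.21 and 0.31 ± 0.22 in PFC (SE). In NAc it differed by -0.31 ± 0.24 under chronic morphine (SE; edgeR, adjusted p = 0.596) and 0.01 ± 0.24 at 2 weeks. With the striatal projection neuron markers as a covariate the chronic value of Cdkn1a was -0.49 (adjusted p = 0.00859 in edgeR), and with 2 surrogate variables -0.55 (0.00219).

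**Figure D2:**
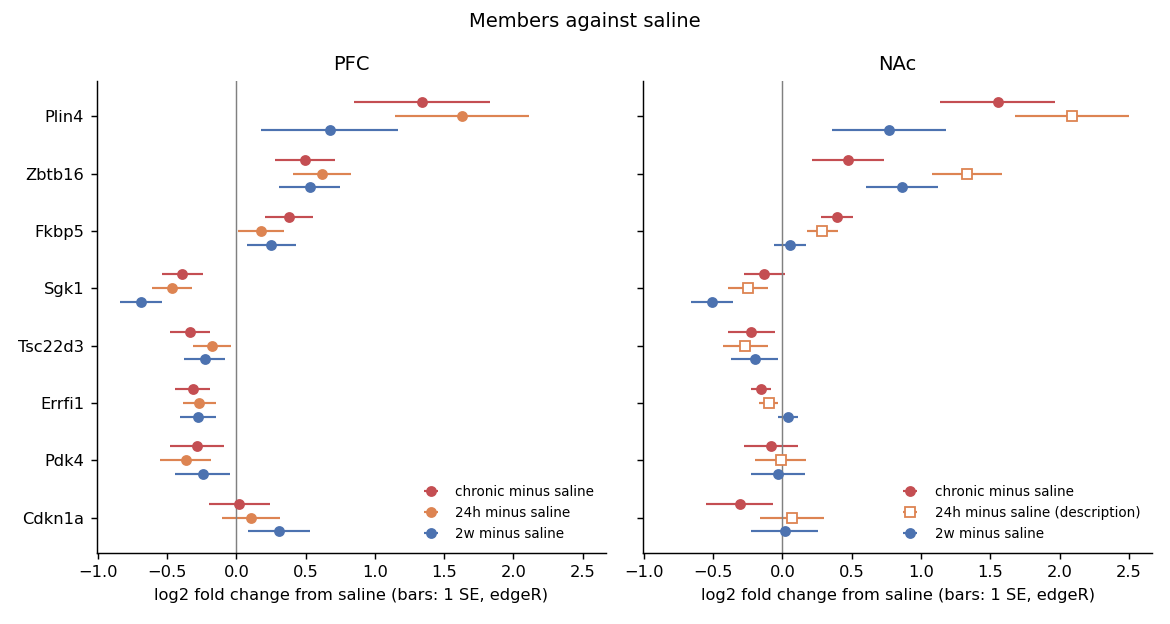
Log2 fold change from saline (horizontal axes) of the 8 genes in PFC and NAc for the chronic, 24 h and 2 weeks groups, with bars of 1 SE from edgeR. Plin4, Zbtb16 and Fkbp5 lie to the right of 0 in every group of both regions, and Sgk1, Tsc22d3 and Pdk4 to the left. For Fkbp5, Sgk1 and Pdk4 the bar crosses 0 in at least 1 group. The open squares, NAc at 24 h, are descriptive.

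The members thus differed among themselves in sign. In NAc at 24 h, the contrast behind the choice, 2 of 8 were among the genes called, a contrast in which 0.163% of all genes were called. Their median log2 fold change was 0.03 there, against -0.01 over all genes tested. The medians were -0.13, -0.03 and 0.01 in PFC under chronic morphine, at 24 h and at 2 weeks, against 0.01, 0.01 and -0.05 over all genes. In NAc they were -0.11 under chronic morphine and 0.03 at 2 weeks, against -0.01 and 0.00.

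**Figure D3:**
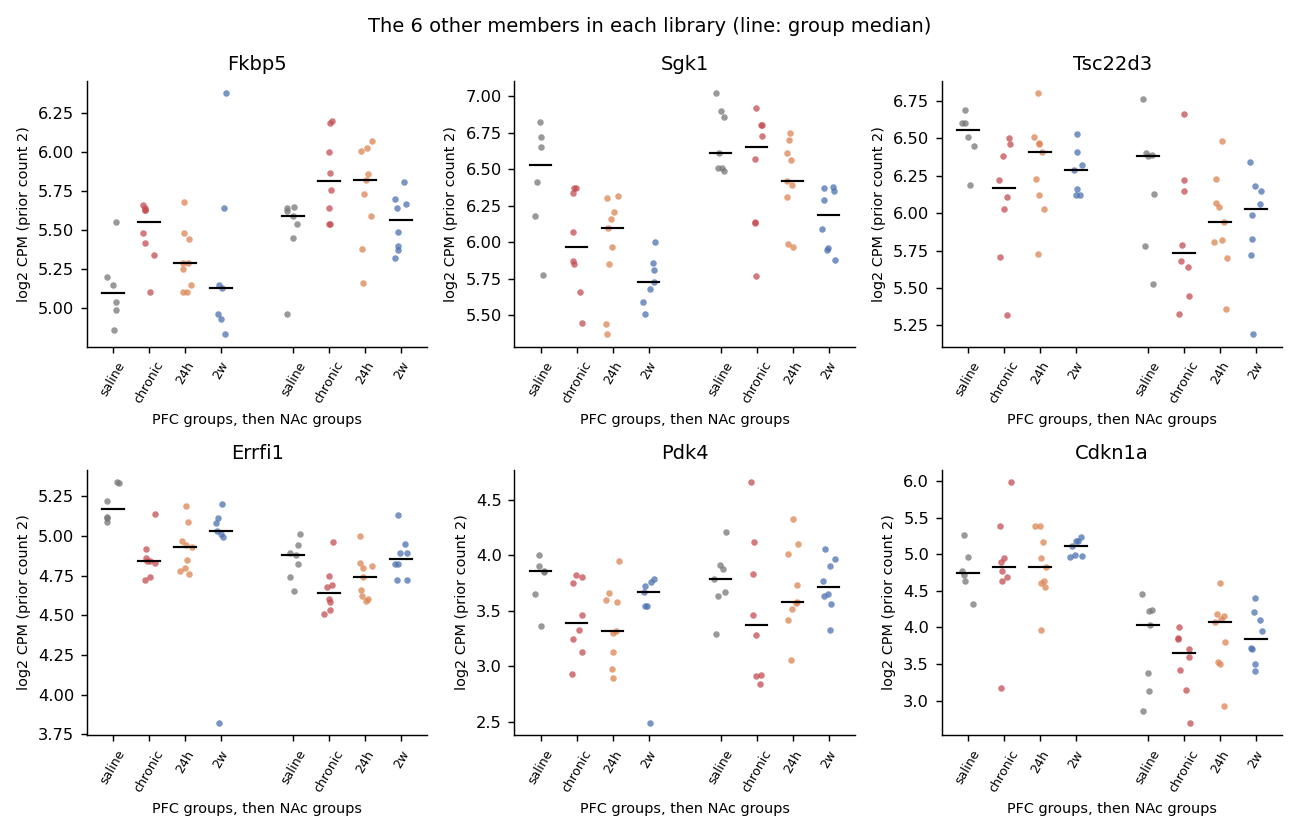
Log2 CPM (vertical axes) of Fkbp5, Sgk1, Tsc22d3, Errfi1, Pdk4 and Cdkn1a in each library by group, PFC groups on the left and NAc groups on the right of each panel, with a line at the group median. For Sgk1 in NAc all 8 libraries at 2 weeks lie below the saline libraries. The lowest Errfi1 and Pdk4 values in PFC are library number 10.

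Plin4 was lower at 2 weeks than at 24 h in both regions on average. In NAc, where the 24 h libraries are those Plin4 was chosen from, the difference of 24 h from 2 weeks is a description, 1.32 ± 0.38 (SE), in a contrast with 0.277% of all genes called. In PFC the difference was 0.96 ± 0.45 (SE; edgeR, adjusted p = 0.578), and 0.15% of all genes were called. From chronic to 2 weeks it was -0.79 ± 0.39 in NAc and -0.67 ± 0.46 in PFC (SE), with edgeR adjusted p of 0.405 and 0.537, in contrasts with 1.89% and 0.813% of genes called. No member was called in these 4 contrasts. Since they share libraries with the contrasts above, they are not separate evidence.

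The effects of morphine were also compared between the regions. For Plin4 the effect in NAc minus that in PFC was 0.23 ± 0.63 under chronic morphine and 0.09 ± 0.65 at 2 weeks (SE; edgeR, adjusted p = 1 for both). At 24 h, where the difference holds the NAc contrast behind the choice and is a description, it was 0.48 ± 0.61 for Plin4 and 0.73 ± 0.33 for Zbtb16 (SE). No member was called, and 0.0311%, 0.0208% and 0.00519% of 19266 genes were called for the 3 groups in turn. In this fit, which takes no account of shared numbers, the SEs are larger than the differences themselves for Plin4. With the number as a block, given in the closing section, the SEs were smaller. That of Plin4 at 24 h was then below its difference, and no member was called. These values do not settle whether the regions differ.

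No member differed between the sexes in its response by the adjusted p in either region. In PFC 0.0111% of all genes were called at 24 h and none in the other groups. In NAc 0.0272% were called under chronic morphine, 0.087% at 24 h and none at 2 weeks. The member with the smallest unadjusted p was Fkbp5 in NAc at 24 h, where the male effect was 0.67 lower than the female one, at -0.67 ± 0.22 (SE; edgeR, adjusted p = 0.49, unadjusted p = 0.00527). Sex differences in NAc at 24 h use the libraries of the contrast behind the choice and are given as a description. For Pdk4 under chronic morphine in NAc the difference was -1.15 ± 0.39 (SE; edgeR, adjusted p = 0.554). Number 27, which goes against its label, is 1 of the 3 chronic females. Without numbers 10 and 27 the value for Pdk4 was -1.44 ± 0.37 (SE; edgeR, adjusted p = 0.267), and 5 members had an unadjusted p under 0.05 in that contrast against 2 with them, none called. Since mt-Nd3 level follows sex in saline, the part of that level in these differences cannot be told apart from sex there. With it as a covariate, 3 genes in place of 16 were called at 24 h in NAc. For Plin4 these differences had SEs of 0.78 to 0.99.

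Members were next compared across libraries after the mean of each treatment-by-sex group had been taken off. Over 28 pairs in each region, 56 in all, Pearson r ranged from -0.66 to 0.72 in PFC and from -0.83 to 0.76 in NAc. Plin4 and Errfi1 stood at that upper end in PFC, at 0.72, and at 0.19 without library number 10. By permutation within groups, 1 pair in PFC and 6 in NAc had an adjusted p under 0.05. Plin4 and Zbtb16 were positively correlated in NAc, with r = 0.58 (n = 32, permutation p = 0.00303, adjusted p = 0.0287) and Spearman rho = 0.53 (adjusted p = 0.0465). Without the 2 libraries farthest from the median of Plin4, r was 0.49. In PFC the same pair had r = 0.39 (n = 30, permutation adjusted p = 0.0729) and rho = 0.49.

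The PFC pair with an adjusted p under 0.05 was Plin4 and Pdk4, with r = 0.68 (permutation adjusted p = 0.043). It rested in part on library number 10: without it r was 0.46 (permutation adjusted p = 0.132). For Plin4 and Fkbp5 in PFC the sign turned with that library, from r = -0.32 with it to 0.63 without it (permutation adjusted p = 0.0227). In NAc, Plin4 and Fkbp5 had r = -0.10 (permutation adjusted p = 0.695).

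The other NAc pairs joined Tsc22d3, Cdkn1a, Fkbp5 and Zbtb16. Tsc22d3 and Cdkn1a had r = -0.83, and Fkbp5 and Tsc22d3 had r = -0.81 (permutation adjusted p = 0.00028 for both, the unadjusted p of 1e-05 being the smallest that 100000 resamples can give). Fkbp5 and Cdkn1a had r = 0.76 (permutation adjusted p = 0.000933), Zbtb16 and Cdkn1a -0.61 (0.0245) and Tsc22d3 and Zbtb16 0.58 (0.0287). Markers of striatal projection neurons summed to 376 to 7550 CPM across NAc libraries, and deviations of that sum correlated with Cdkn1a at r = 0.91, with Fkbp5 at 0.76, with Tsc22d3 at -0.83, with Zbtb16 at -0.49 and with Plin4 at -0.30. Summed astrocyte markers correlated with the first 3 at -0.81, -0.72 and 0.74. With the striatal sum regressed out, none of the 28 NAc pairs had an adjusted p under 0.05. Fkbp5 and Tsc22d3 then had r = -0.48 (permutation adjusted p = 0.0837), Tsc22d3 and Cdkn1a -0.32, and Plin4 and Zbtb16 0.52 (permutation adjusted p = 0.126).

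Deviations of Plin4 were also set against the other marker sums, as a description over 32 NAc and 30 PFC libraries. In NAc the largest r in size was 0.63, with oligodendrocyte markers. In PFC it was -0.74, with microglia markers (-0.66 without number 10), followed by -0.47 with both endothelium and mural markers (-0.59 and -0.61 without number 10) and 0.39 with oligodendrocyte markers (0.30 without number 10). Microglia markers in PFC had medians of 379, 369, 352 and 365 CPM in the saline, chronic, 24 h and 2 weeks groups, with overlapping ranges, and their part in the differences was not tested. The oligodendrocyte sum had medians of 10200, 8890, 9150 and 8790 CPM in the NAc saline, chronic, 24 h and 2 weeks groups, with overlapping ranges. Its part in the differences was tested only as a covariate. With it as a covariate the chronic log2 fold change of Plin4 in NAc was 1.42, and with the striatal sum 1.67. Of the adipocyte markers, Lep was at 0 in every library, and in NAc Adipoq reached at most 0.153 CPM, Cidec 0.0586 CPM, Plin1 0.346 CPM and Fabp4 0.459 CPM. Retn was highest, with a median of 0.806 and a maximum of 1.72 CPM in NAc and 0 in only 2 of the 32 libraries. The adipocyte sum in NAc reached 1.73 CPM in saline, 1.75 CPM under chronic morphine, 1.62 CPM at 24 h and 1.01 CPM at 2 weeks, with medians of 0.885, 1.48, 0.888 and 0.63 CPM.

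**Figure D4:**
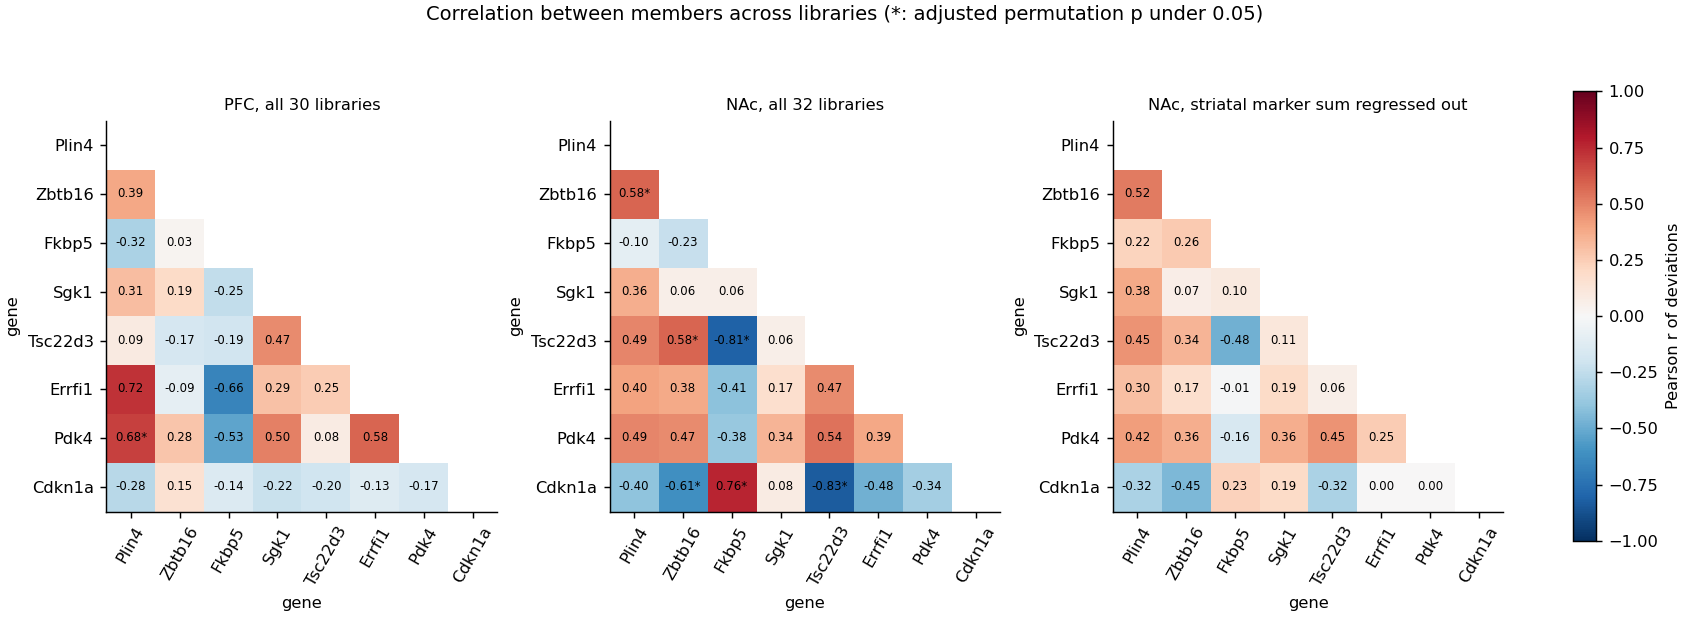
Pearson r between deviations of log2 CPM from treatment-by-sex means for each pair of the 8 genes, in PFC, in NAc, and in NAc with the striatal marker sum regressed out. Asterisks mark adjusted permutation p under 0.05. The NAc block of strong values among Fkbp5, Tsc22d3 and Cdkn1a is paler in the third map.

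Libraries of PFC and NAc that share a number were compared gene by gene over 30 numbers. Deviations of Plin4 correlated between the regions at r = 0.49 (permutation p = 0.00561, adjusted p = 0.0302 over 8 genes) and rho = 0.61 (adjusted p = 0.0125). Without number 10 r was 0.57 (permutation adjusted p = 0.0516), and without the 2 libraries farthest from the median 0.53 (0.0763). Pdk4 had r = 0.49 (permutation adjusted p = 0.0302) and 0.64 without number 10 (permutation adjusted p = 0.0263). By r, neither gene passed the threshold without the 2 farthest libraries. Nor did either pass without saline (permutation adjusted p = 0.0706 for both) or without numbers 10 and 27 (0.121 for Plin4 and 0.0894 for Pdk4). By rho, Plin4 stayed under 0.05 in these settings (permutation adjusted p = 0.0352, 0.0491 and 0.0425 in turn). Pdk4 did not by rho (permutation adjusted p = 0.0576, 0.0759 and 0.105). The other 6 had r from -0.12 for Tsc22d3 to 0.48 for Sgk1, with none past the threshold. Number 13 of the 2 weeks group had the highest Plin4 of its group in both regions, 3.10 in PFC and 3.46 in NAc, and saline number 5 had the lowest of its group, 0.29 and 0.04.

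**Figure D5:**
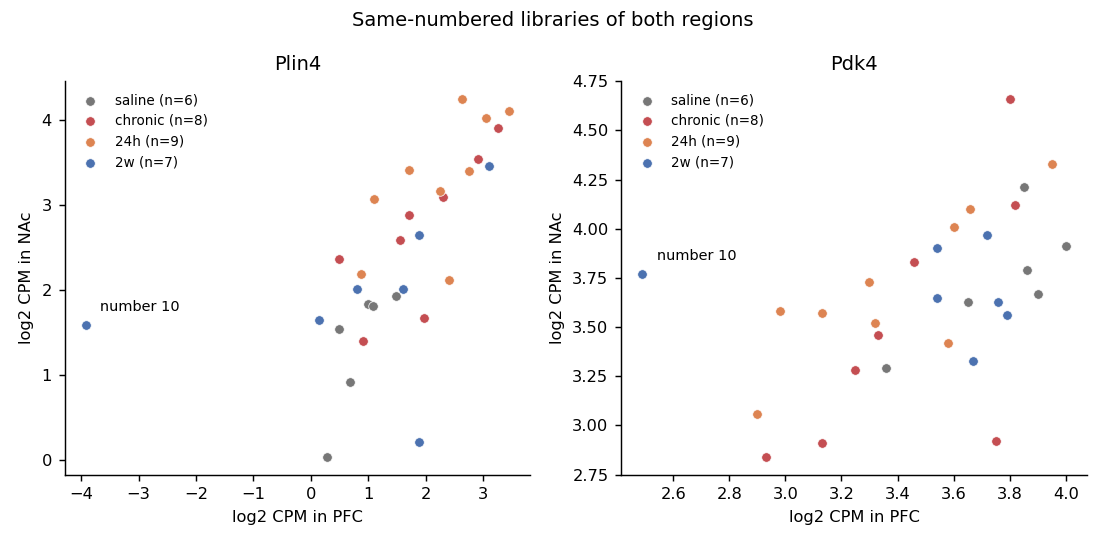
Log2 CPM in PFC (horizontal axes) and NAc (vertical axes) of Plin4 and Pdk4 for the 30 numbers with a library in both regions, coloured by group. Points are levels, group differences included. Number 10, with 0 Plin4 counts in PFC, stands apart on the left.

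Among 12541 genes with a mean log2 CPM of at least 1 in both regions, those most like Plin4 across libraries were Ldb3, Dnm2, Cpm, Anln and Sult1a1, by the mean over the regions of r between deviations. Ldb3 had r = 0.81 in PFC and 0.75 in NAc. The mean r of the 5 ranged from 0.73 to 0.78. Sult1a1 is also on the list of other glucocorticoid-induced genes used below. Without number 10 the 5 were Il1rap, Usp54, Baz2b, Ldb3 and Cep97, with mean r of 0.61 to 0.64. The members ranked well below these: without number 10, Zbtb16 was at rank 71 and Pdk4 next among the members, while Fkbp5 was at 1253 and Cdkn1a at 12165. With it, Zbtb16 was at rank 842 and Pdk4 at 236.

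Nr3c1, the glucocorticoid receptor, differed from saline by -0.03 to 0.12 on the log2 scale over the 6 contrasts, and Nr3c2, the mineralocorticoid receptor, by -0.03 to 0.30, with no call. Of 12 tested genes of receptors, chaperones, cofactors and hormone enzymes, 1 was called in a contrast with saline: Ncoa2, a receptor coactivator, rose in chronic NAc, by 0.33 ± 0.08 (SE; in edgeR, adjusted p = 0.0354). The median of that list was 0.04 there, against -0.01 over all genes, of which 1.69% were called. In PFC at 2 weeks the gene with the smallest p was Hsd11b1, which regenerates active hormone (-0.23). In NAc it was Ncoa2 at 24 h (0.26) and Hsp90ab1 at 2 weeks (0.07). Under chronic morphine Hsd11b1 was at -0.63 ± 0.22 in PFC (SE, with edgeR adjusted p of 0.384). In NAc under chronic morphine Hsd11b1 was at -0.95 ± 0.33 (SE, with edgeR adjusted p of 0.139). At 24 h its values were -0.41 in PFC and -0.55 in NAc, and at 2 weeks in NAc -0.14.

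Other genes known to be induced by glucocorticoids, 29 tested in PFC and 30 in NAc, did not move as a block. In PFC 2 fell under chronic morphine and none rose, in a contrast with 0.417% of all genes called. Dusp1, a phosphatase that shuts off MAP kinases, fell by 1.68 on the log2 scale (SE 0.18; edgeR, adjusted p = 1.22e-06), and the clock gene Per1 fell by 1.11 (SE 0.14; edgeR, adjusted p = 2.35e-05). At 24 h in PFC Dusp1 fell by 1.38 (SE 0.17; edgeR, adjusted p = 6.07e-05), and at 2 weeks none was called. Over all genes 0.0779% and 0.00557% were called in these contrasts. In NAc under chronic morphine Fam107a, an actin-binding stress-induced gene, rose by 0.43 ± 0.08 (SE; edgeR, adjusted p = 0.00624). Cebpb, a transcription factor, fell by 0.54 (SE 0.14; edgeR, adjusted p = 0.0462). Over all genes 1.69% were called in that contrast. At 24 h in NAc, the contrast in view at the choice, values are a description. There Ddit4, an inhibitor of mTORC1, fell by 0.38 (SE 0.06) and was among the 0.163% of all genes called. The medians of the list were -0.08, -0.02 and -0.12 in PFC and -0.05, 0.05 and -0.04 in NAc for the 3 groups in turn. Over all genes they were 0.01, 0.01 and -0.05 in PFC and -0.01, -0.01 and 0.00 in NAc. At 2 weeks the smallest p was that of Cebpd in PFC, at -1.06 ± 0.34 (SE; edgeR, adjusted p = 0.862), and of Nedd9 in NAc, at -0.42 ± 0.15 (SE; edgeR, adjusted p = 0.548). From chronic to 2 weeks in PFC Dusp1 rose by 1.52, Per1 by 0.92 and Klf15 by 0.54 (edgeR, adjusted p = 5.02e-06, 0.000213 and 0.0106), and in NAc Fam107a fell by 0.31 (edgeR, adjusted p = 0.0456). Dusp1 was also lower at 24 h than at 2 weeks in PFC, by -1.22 (edgeR, adjusted p = 0.000176). Several of these genes, Dusp1, Per1 and Cebpb among them, are also induced by neuronal activity.

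None of the 17 tested relatives of the members, such as the other perilipins, was called in a contrast with saline. Plin2, the perilipin of most cells outside fat, differed by -0.20 to 0.03 over the 6 contrasts, and Plin3 by -0.20 to 0.19. Plin5 differed by -0.95 to 0.53, with SEs of 0.58 to 0.82. The smallest p belonged to Zbtb20 in PFC under chronic morphine (0.58) and at 24 h (0.40), Tsc22d1 in PFC at 2 weeks (-0.11), Pdk3 in NAc under chronic morphine (0.29 ± 0.10, SE; edgeR, adjusted p = 0.135) and at 24 h (0.27), and Pdk1 in NAc at 2 weeks (-0.20).

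Of 11 tested p53 targets, Btg2 alone was called against saline, and whether p53 had a part in its fall was not tested. In PFC Btg2 fell by 1.22 under chronic morphine (SE 0.16; edgeR, adjusted p = 2.84e-05) and at 24 h by 1.19 (SE 0.15; edgeR, adjusted p = 6.07e-05). In the chronic group of NAc, Btg2 fell by 0.56 (SE 0.13; edgeR, adjusted p = 0.02). Over all genes 0.417%, 0.0779% and 1.69% were called in these 3 contrasts. Btg2 rose again from chronic to 2 weeks in PFC, by 1.12 (edgeR, adjusted p = 6.4e-05). Where no p53 target was called, the smallest p was that of Eda2r in PFC at 2 weeks (-3.20 ± 1.27, SE), Btg2 in NAc at 24 h (-0.41) and Zmat3 in NAc at 2 weeks (0.16). The median of the p53 list ranged from -0.09 to -0.06, against -0.05 to 0.01 over all genes.

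None of 16 fasting, FOXO and PPAR targets, the list of the metabolic setting of Pdk4, was called against saline. Its median ranged from -0.05 to 0.11, against -0.05 to 0.01 over all genes. The smallest p belonged to Gadd45a in PFC under chronic morphine (-0.52) and at 2 weeks (0.63), Txnip in NAc under chronic morphine (-0.31) and at 2 weeks (-0.29), and Irs2 in NAc at 24 h (0.26). Gadd45a was higher at 2 weeks than under chronic morphine in PFC, by 1.14 ± 0.24 (SE; edgeR, adjusted p = 0.0115).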

How the data were processed

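Counts of reads per gene were deposited by the authors for mice as 1 table of raw whole numbers, 1 column per library. The submitters' processing notes name FastQC, cutadapt, STAR, RSEM, Trimmomatic and HISAT2 without saying which made which table. Strand use in counting is not given in the sources used here, so counts of overlapping genes are uncertain. The rat table was not used here. Of 46078 identifiers, 45143 matched a symbol. Positions came from GENCODE M21 (GRCm38).

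Each region was fitted with edgeR 4.0.16 (R 4.3.3): TMM, filterByExpr, robust quasi-likelihood fit of treatment-by-sex groups, contrasts averaged over sexes, and Benjamini-Hochberg adjustment over all genes. The robust option was settled after both forms had been seen. A fit over both regions gave the region differences. Correlations used 100000 permutations within treatment-by-sex groups. With the marker sum regressed out, the permuted residuals are only approximately exchangeable. Scripts were tested on simulated data. The alternatives were size factors, no filter, DESeq2 1.42.0, a fit of treatment plus sex, 2 surrogate variables (sva 3.50.0), and each library left out. Covariates, the fit that is not robust and omission of numbers 10 and 27 were chosen after seeing the data. The members and lists were chosen with earlier results of these data known. From each list, genes called in a contrast were named, at most 4, or else the 1 with the smallest p; the text applies this to the contrasts with saline and names calls in the others. Some genes that this rule selects are not reported here. The genes most like Plin4 were the 5 with the highest mean r. Plin4 had 28 to 487 counts per library, apart from 1 library with 0, and the part of depth in its SEs was not tested.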

Additional observations from a re-analysis of the deposited data

Results flagged for a closer look

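Each of the 64 groups (8 genes, 8 groups) was checked for a library far from the rest by Dixon's ratio, which chance exceeds in about 1 of 20 groups, and 4 groups had one. In 3 of them it was PFC library number 10, at 2 weeks. There Plin4 was at -3.92 log2 CPM with the next value at 0.15, Errfi1 at 3.82 with the next at 4.99, and Pdk4 at 2.49 with the next at 3.54. This library held 5.183 M counts, the fewest of all. The fourth was Fkbp5 in NAc saline number 2, at 4.96 with the next value at 5.45.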

How the results depend on the processing

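No member was called against saline in PFC or at 2 weeks in NAc except where named here. The number of members called in NAc under chronic morphine was 0 in the reported fit, 1 with median-of-ratios size factors, with treatment plus sex and with the fit that is not robust, 2 with DESeq2 and with the oligodendrocyte covariate, and 3 with 2 surrogate variables and with the projection neuron covariate. Leaving out 1 library gave 0 to 1, with Plin4 called without saline 7, chronic 31 or 32, 24 h 16, 22 or 24, or 2 weeks 13 or 14. For Plin4 these calls share saline libraries with the contrast it was chosen from and support nothing. In NAc at 24 h the number was 2, 0 without the filter, and 0 to 2 with 1 library left out: Plin4 was not called without saline 1, 2, 3, 4 or 6 or 24 h 18, 19 or 21, nor Zbtb16 without saline 1, 2, 3 or 4 or 24 h 19 or 21. DESeq2 called 1 member in PFC at 2 weeks (Sgk1) and 1 in NAc between 24 h and 2 weeks (Plin4, a description for the same reason), where leaving out 1 library gave 0 to 1. Between chronic and 2 weeks, 2 surrogate variables called 1 member in PFC and 2 in NAc, the projection neuron covariate 2 in NAc, and leaving out 1 library in NAc gave 0 to 1. The fit with 2 surrogate variables also called 1 sex difference, Fkbp5 in NAc at 24 h, a description since these libraries are those behind the choice. The cause was not tested for any of these.

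Counted by Pearson r, pairs of members with an adjusted p under 0.05 numbered 1 in PFC and 5 without centring on group means. They numbered 0 without saline, without the 2 farthest libraries and with the cortical marker sum regressed out. In NAc they numbered 6, 3 without saline and 0 with the striatal sum regressed out. Between regions, also by r, they numbered 2 of 8 genes, 5 without centring and 1 without number 10. They numbered 0 without saline, without numbers 10 and 27 and without the 2 farthest, though by rho Plin4 stayed under 0.05 there. Plin4 and Fkbp5 in PFC changed sign, with r = 0.63 without number 10 and 0.66 without numbers 10 and 27, and so did Plin4 and Errfi1 in NAc without centring, at -0.08.

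Whether a number is an animal is not given in the labels. Of 24 autosomal genes with separate high and low levels in both regions, 21 had the same state in all 29 numbers compared, while deviations of same-numbered libraries over all genes correlated at -0.01 to 0.23 with 10 of 30 pairs over 0.1. With the replicate block the region difference was 0.26 ± 0.46, 0.55 ± 0.45 and 0.28 ± 0.50 (SE) for Plin4 and 0.70 ± 0.26 for Zbtb16 at 24 h, with no member called. It moved the calls over all genes from 6, 4 and 1 to 6, 2 and 0. Over the other settings, calls among all genes were 0.667 to 2.33 times the reported 75 under chronic morphine, 0.786 to 3.5 times the 14 at 24 h and 0 to 12 at 2 weeks (reported 1) in PFC. In NAc they were 0.371 to 2.93 times the 310, 0.367 to 7.37 times the 30 and 1 to 41 (reported 1). DESeq2 or 2 surrogate variables gave the highest count in each of these. Leaving out 1 library gave 0.587 times (without saline 1 or 6) to 2.2 times (without number 10) the 75 in PFC, 2 times the 14 without number 10, 0.377 times (without number 27) to 1.81 times (without chronic 25) the 310, and 3 (without saline 1) to 45 (without 24 h 17) in place of the 30.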
